A study of Rhinolophus ferrumequinum with 8 samples.

Results

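The 60 genes described here encode nuclear subunits of the mitochondrial machinery that makes ATP, measured in whole spleen of the greater horseshoe bat. They were taken by name prefix from a table of 19652 genes: 38 fell to complex I, 4 to complex II and 18 to complex V. All 60 had a mean level of at least 1 over the libraries, so none was lost to the filter on low values. Complexes III and IV also came under the naming rule, but were not analysed here.

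Complex I takes electrons from NADH and pumps protons across the inner mitochondrial membrane. Complex II oxidizes succinate and joins the citric acid cycle to the respiratory chain without pumping protons. Complex V, the ATP synthase, lets protons back through a rotating ring of c subunits and makes ATP in its F1 head. In hibernators, torpor lowers oxygen use and body temperature, and arousal is the costly return to a warm body.

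RNA sequencing was done on spleens of wild females in 4 states, with 2 biological replicates each, written below as torpor 1, torpor 2 and so on. Summer active bats were sampled in July, and torpor, arousal and winter active bats in November. The labels put arousal bats at 2 h and winter active bats at 26 h after capture. No age or treatment is given, the bats are wild-caught, and month and state cannot be told apart for the summer libraries. For the arousal and winter active libraries, time after capture and state cannot be told apart. The labels call the replicates biological without saying whether a library is 1 bat or a pool. A p-value sets a difference between states against the spread of these libraries within states, partly estimated from other genes.

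A level is the deposited value, a rescaled TPM (a transcript abundance that allows for transcript length, so that levels of different genes can be compared). Differences are between means of log2(value + 1), so those of genes with low levels come out smaller than their fold change. They are taken from limma, a linear model fitted to all 13542 genes with a mean of at least 1, and "passed" means a Benjamini-Hochberg adjusted p under 0.05 over all of them. Read depth is unknown because the values carry no counts.

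Of 14 spleen markers (B cell, T cell, red pulp macrophage and stroma), 12 were found and their summed level was 2518 to 3944 in every library. Within that sum, the B cell genes CD79A and CD79B were higher in summer (760 and 1072, and 1074 and 916) than elsewhere (184 to 448 and 173 to 379.9). The macrophage and stroma gene VCAM1 was lower in summer (915 and 521) than elsewhere (1274 to 1825). The other macrophage and stroma markers, CD163, SPIC, CD5L, TLX1 and STAB2, overlapped between summer and the other libraries. Markers of other cells differed among libraries. The 5 erythroid markers summed to 3975 and 5411 in summer and to 0.926 to 99.9 elsewhere. The 5 hepatocyte markers summed to 14976 in arousal 2 and to 48.9 to 1875 elsewhere, and the 4 neutrophil markers to 3569 in torpor 1 and 404 to 976 elsewhere. The 5 pancreatic markers summed to 12.5 to 1334, the 5 adipocyte markers to 5.88 to 235 and the 6 striated muscle markers to 2.77 to 14.8. The sums of the 5 pericyte markers were higher in all arousal and winter libraries than in all summer and torpor libraries. They were 55.6 and 31.1 in summer, 44.3 and 46.6 in torpor, 82.2 and 112 in arousal and 71.3 and 85.8 in winter activity. Erythroid sums split these libraries in the opposite direction. They were 58.2 or more in summer and torpor and 32.8 or less in arousal and winter activity. The part these cells play in the subunit results was not tested. In bulk tissue, fewer cells of a type and less RNA per cell cannot be told apart.

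The column totals ran from 745098 (arousal 1) to 1331820 (summer active 2), and the scale between libraries decides the sign of some results. The 10 genes with the highest means held 35.9% and 35.8% of the summer totals and 7.22% to 19.5% of the others. Rescaling every column to 1000000 moved the median difference of all genes to 0.29 for torpor against summer active, 0.45 for arousal against torpor, 0.24 for winter active against torpor, 0.55 for winter active against summer active, 0.76 for arousal against summer active and -0.22 for winter active against arousal. The members' medians are therefore given also relative to the median of all genes tested.

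Subunit genes were at their highest in torpor and summer and at their lowest in arousal and winter activity, on the deposited scale. Each gene's level in a library was set against its own mean over the 8 libraries. The median of the 60 genes was then 0.19 and 0.15 in summer, 0.27 and 0.093 in torpor, -0.39 and -0.082 in arousal, and -0.038 and -0.11 in winter activity. All 13542 genes had medians between -0.084 (torpor 1) and 0.046 (arousal 2), with the 4 summer and torpor libraries lowest. The arousal and winter libraries thus all lay below the summer and torpor libraries in the median of the members, while the order for all genes was the opposite.

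Arousal 1 was the lowest library for 43 of the 60 genes and torpor 1 the highest for 26. In arousal 53 genes were lower in replicate 1 than in replicate 2, and in torpor 45 were higher in replicate 1. The replicates of summer activity were nearly even, with 31 genes lower in replicate 1 and 29 higher, and in winter activity 38 were higher in replicate 1. The summed level of the 60 genes was 13197 and 13037 in summer, 13818 and 12308 in torpor, 8529 and 10546 in arousal, and 11621 and 10661 in winter activity. These sums made up 0.979% to 1.40% of the column totals, and as shares the 2 summer libraries were lowest.

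**Figure D1:**
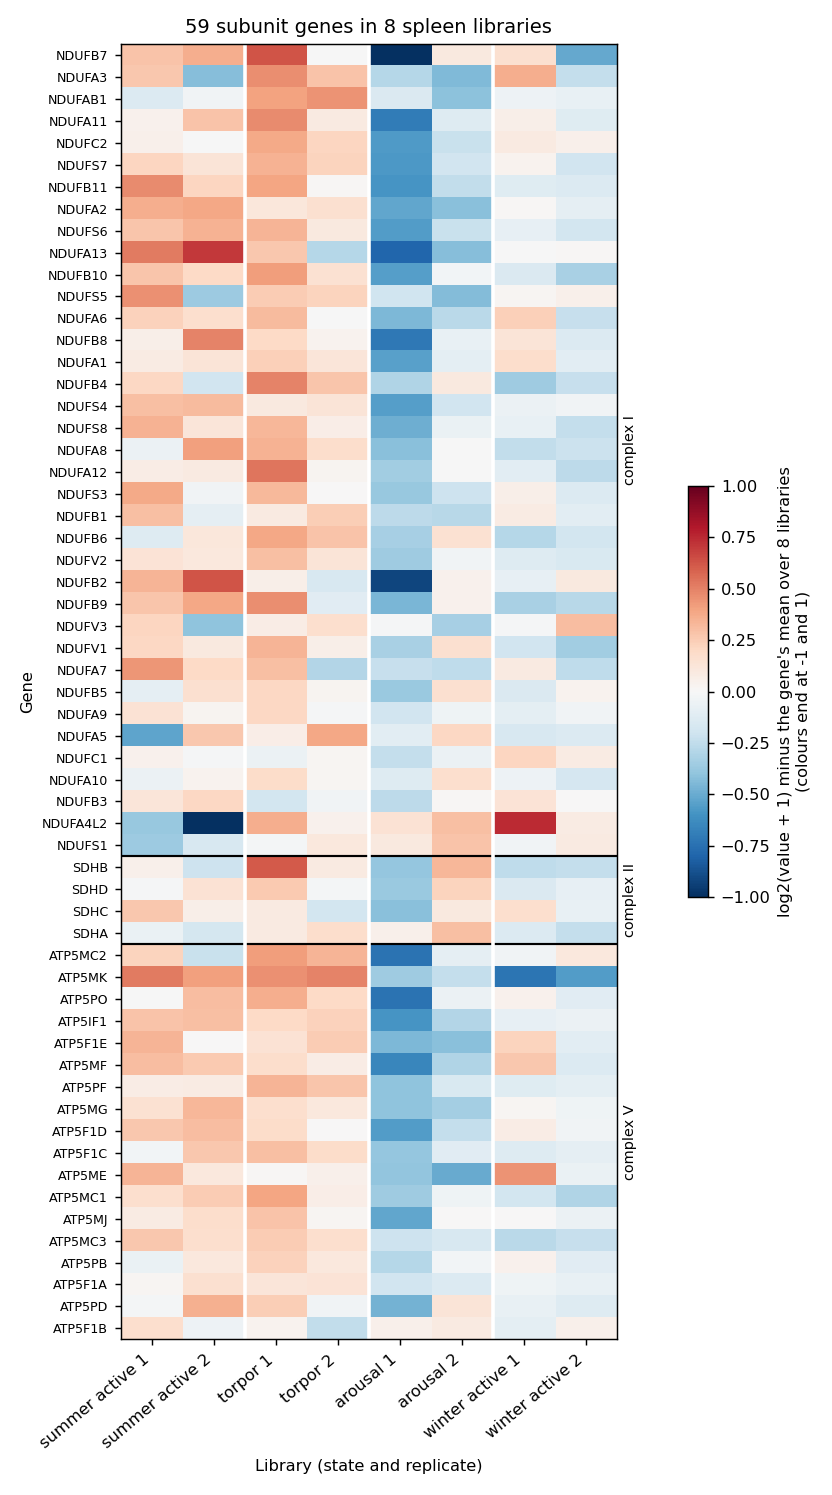
Heat map of 59 of the subunit genes (rows, sorted within complexes I, II and V by their difference between arousal and torpor) in the 8 libraries (columns). Colour gives log2(value + 1) minus the gene's mean over the 8 libraries: the arousal 1 column is the lowest for 42 of these genes and the torpor 1 column the highest for 26.

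The mean was lowest in arousal for 43 genes, in winter activity for 14, in summer for 2 and in torpor for 1. It was highest in torpor for 32 genes and in summer for 22, and highest in arousal and in winter activity for 3 each. The commonest order, in 17 genes, was arousal, winter active, summer active, torpor from low to high, and 16 genes had the same order with torpor and summer exchanged. In 19 genes all 4 arousal and winter libraries lay below all 4 summer and torpor libraries, as they did in 5.44% of all genes tested. No member had the reverse pattern, which 9.85% of all genes had. With columns rescaled to 1000000 the 19 became 0 and 2 members had the reverse pattern, against 0.687% and 26% of all genes.

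**Figure D2:**
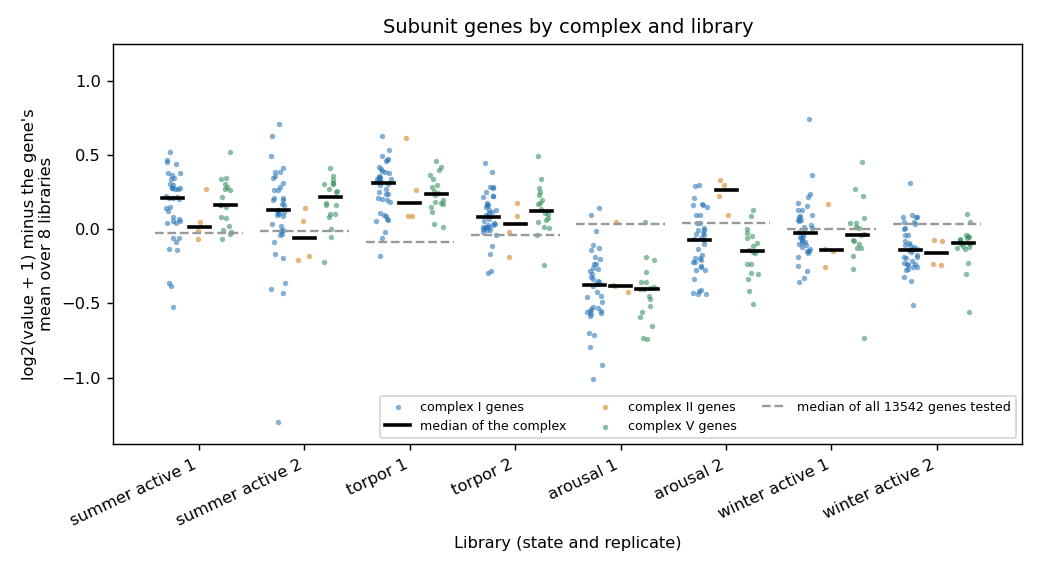
Each dot is 1 gene in 1 library, as log2(value + 1) minus that gene's mean over the 8 libraries, with a black bar at the median of each complex and a dashed line at the median of all 13542 genes. The medians of complexes I and V are above the dashed line in all 4 summer and torpor libraries and below it in all 4 arousal and winter libraries, while complex II is above it in arousal 2.

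Within complex I, the 7 core genes carry the flavin and the iron-sulfur clusters that pass electrons from NADH to quinone. NDUFV1, which binds the flavin and NADH, stood at 123 and 114 in summer, 135 and 111 in torpor, 84.9 and 119 in arousal and 93.1 and 83.2 in winter activity. NDUFS7, which holds the last cluster before the quinone, stood at 183 and 172, 200.2 and 183, 105 and 137, and 160.3 and 137 in the same order of states. For NDUFS7 both arousal libraries were below both torpor and both summer libraries, whereas NDUFV1 overlapped between arousal and torpor. Neither gene passed in any of the 6 comparisons.

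NDUFS1, the largest iron-sulfur subunit of complex I, went the other way. It stood at 50.5 and 58.2 in summer, 64.5 and 70.5 in torpor, 69.9 and 80.0 in arousal and 63.8 and 69.4 in winter activity. The summer libraries were the lowest and lay below all 6 November libraries. Its difference from summer was 0.46 (SE 0.18) in arousal, 0.31 in torpor and 0.29 in winter activity, and none passed (limma adjusted p = 0.148, 0.442 and 0.470). Its ratio to the median of the other 6 core genes, which does not depend on how libraries are scaled, was 0.274 and 0.365 in summer, 0.336 and 0.445 in torpor, 0.639 and 0.598 in arousal and 0.411 and 0.506 in winter activity. Both arousal ratios were above those of every other library.

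The 30 accessory genes of complex I encode subunits that surround the core and are needed for its assembly and stability. NDUFA13, a subunit also known as GRIM-19 (NCBI gene 117038310), had levels of 299 and 340.3 in summer, 251 and 171 in torpor, 119 and 154 in arousal and 207 and 209 in winter activity. Summer was highest and arousal lowest, with no overlap between them. NDUFA2, a subunit with a thioredoxin-like fold (NCBI gene 117016928), stood at 238 and 242, 199.6 and 207, 128 and 138, and 186 and 174. The libraries of the 4 NDUFA2 groups did not overlap, in the order arousal, winter active, torpor, summer active from low to high.

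NDUFAB1, the mitochondrial acyl carrier protein, had its highest level in torpor. It stood at 118 and 127 in summer, 173 and 178 in torpor, 118 and 97.6 in arousal and 126 and 123 in winter activity. Both torpor libraries were above all the others. The difference was 0.51 (SE 0.17) for torpor against summer and -0.70 (SE 0.17) for arousal against torpor, and neither passed (limma adjusted p = 0.222 and 0.149).

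The accessory genes also spanned the range of levels. NDUFA5 had the lowest mean of all 60 genes, 6.31, with 4.00 and 7.65 in summer and 5.44 and 5.53 in winter activity. NDUFA9, which binds a nucleotide at the edge of the matrix arm, varied least on the log2 scale (SD 0.13 over the 8 libraries) and ranged only from 66.5 (arousal 1) to 87.7 (torpor 1). NDUFA4L2 varied most (SD 0.61). It is a paralog that the naming rule takes in with complex I and that is known as a target of hypoxia signalling. Its levels were 5.94 and 2.67 in summer, 10.6 and 8.28 in torpor, 8.99 and 10.1 in arousal and 14.2 and 8.58 in winter activity. The summer libraries were below all 6 November libraries, with differences of 1.04 in torpor, 1.06 in arousal and 1.26 in winter activity, none of which passed (limma adjusted p = 0.243, 0.115 and 0.194).

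Complex II has 4 genes, and its arousal replicates were far apart. SDHA, the flavoprotein that oxidizes succinate, stood at 106 and 97.7 in summer, 118 and 125 in torpor, 115 and 137 in arousal and 101 and 93.5 in winter activity. SDHB, the iron-sulfur subunit, stood at 146 and 122, 217 and 151, 108 and 178, and 118 and 119.6. SDHA in torpor and arousal was above both summer libraries and both winter libraries, and SDHB differed between the arousal replicates by more than between any pair of state means.

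The membrane anchors SDHC and SDHD bind the quinone. SDHC stood at 188 and 161 in summer, 165 and 136 in torpor, 116 and 166 in arousal and 175 and 148 in winter activity. SDHD stood at 140.4 and 157, 170.1 and 140.04, 109 and 165, and 128 and 134. In both anchors the arousal replicates overlapped with torpor and with summer, arousal 1 being low and arousal 2 not. The median distance of complex II from its own mean was -0.38 in arousal 1 and 0.26 in arousal 2, the widest gap between replicates of any complex. In arousal 1 it was close to complex I (-0.37) and complex V (-0.40), and arousal 2 was the library with the highest hepatocyte markers. No difference between complexes was tested. None of the 4 genes passed in any comparison.

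In complex V, the F1 head holds the sites where ATP is made. ATP5F1A and ATP5F1B encode the alternating alpha and beta subunits. ATP5F1A stood at 440.2 and 485 in summer, 470.3 and 477 in torpor, 380.3 and 393 in arousal and 421 and 412 in winter activity, with all arousal and winter libraries below all others. ATP5F1B stood at 499.5 and 429 in summer, 456 and 376 in torpor, 459.9 and 474 in arousal and 415 and 461 in winter activity, with arousal just above torpor and inside the range of summer. The ratio of ATP5F1B to ATP5F1A was 1.21 in both arousal libraries, 0.787 and 0.971 in torpor, 0.885 and 1.14 in summer and 0.986 and 1.12 in winter activity.

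ATP5F1E, the small epsilon subunit of the central stalk, had the highest mean of the 60 genes, 784. It stood at 976 and 772 in summer, 853 and 918 in torpor, 563 and 576 in arousal and 899 and 717 in winter activity. Both arousal libraries were below all 6 others. ATP5IF1, the inhibitor protein that blocks the enzyme from running backwards and hydrolysing ATP, stood at 438 and 443 in summer, 412 and 422 in torpor, 238 and 292 in arousal and 339.7 and 345 in winter activity. Its 4 states did not overlap, with arousal lowest. The difference of ATP5IF1 was -0.74 (SE 0.18) for arousal against summer and -0.66 for arousal against torpor, and neither passed (limma adjusted p = 0.0564 and 0.169). Its ratio to ATP5F1A was 0.626 and 0.742 in arousal, below the 0.807 to 0.995 of the other 6 libraries.

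The c subunit of the proton-driven ring comes from 3 genes that encode the same mature protein with different import sequences. Together they had a level of 444 and 430.4 in summer, 483 and 420.5 in torpor, 304 and 356 in arousal and 331 and 326 in winter activity. The arousal and winter libraries were all below the others. ATP5MC1 made up 44.0% to 49.0% of the sum and ATP5MC3 41.3% to 47.4%. ATP5MC2 was the smallest share in every library, from 7.32% in arousal 1 to 12.4% in winter active 2. ATP5MC2 was at 44.1 and 32.2 in summer, 50.7 and 47.9 in torpor, 22.2 and 35.3 in arousal and 36.8 and 40.5 in winter activity. Its difference for arousal against torpor, -0.79 (SE 0.26), was the most negative of the 60 genes in that comparison and did not pass (limma adjusted p = 0.191).

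ATP5MK encodes a small membrane subunit, also called DAPIT, that helps hold ATP synthase dimers together (NCBI gene 117036290). It stood at 124 and 116 in summer, 119 and 122 in torpor, 67.4 and 73.3 in arousal and 51.8 and 58.4 in winter activity. Summer and torpor overlapped, arousal lay below both, and winter activity lay below arousal. Relative to the median of the other complex V genes in the same library, it was 0.418 and 0.363 in summer, 0.358 and 0.427 in torpor, 0.335 and 0.262 in arousal and 0.177 and 0.223 in winter activity. The ratios of all 4 arousal and winter libraries were below those of all 4 summer and torpor libraries, and a ratio within a library does not change when the library is rescaled.

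The median level of complex V was 2.14 and 2.12 times that of complex I in winter activity and 1.85 to 2.10 times in the other 6 libraries, so both winter libraries were highest by a small margin. The median of complex II was 0.910 to 1.05 times that of complex I in 7 libraries and 1.32 times in arousal 2.

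**Figure D3:**
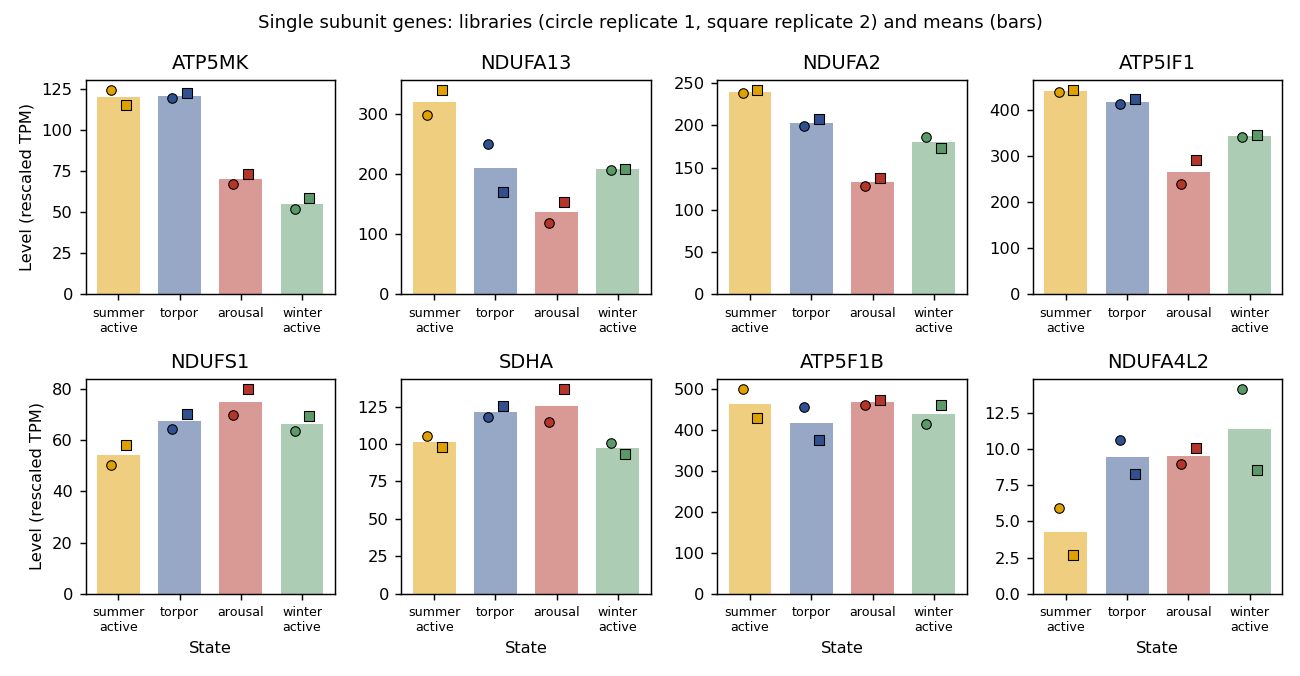
Levels (rescaled TPM, axes from 0) of 8 subunit genes by state, with bars at the mean of 2 libraries, circles for replicate 1 and squares for replicate 2. ATP5MK is low in arousal and winter activity, NDUFA13, NDUFA2 and ATP5IF1 are lowest in arousal, and NDUFS1 and NDUFA4L2 are lowest in summer.

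Torpor against summer active asks whether hibernating bats differed from summer bats in these genes. Of the differences, 35 were positive and 25 negative, with a median of 0.032 against -0.055 for all genes. With limma no member passed in either direction (0.0738% of all genes rose and 0.487% fell), and 2 members higher and 1 lower had an unadjusted p under 0.05, where 6.28% and 9.71% of all genes stood. In 13 members both torpor libraries were above both summer libraries, and in 10 both were below (21.7% and 16.7% of members), where all genes had 20.4% and 26%. With columns rescaled to 1000000 these counts were 50 and 0, against 45.1% and 10.8% of all genes. The extremes were NDUFA4L2 at 1.04 and NDUFA13 at -0.62. NDUFB2, another accessory subunit of complex I, differed by -0.54 (SE 0.32), with 271 and 232 in torpor against 329.7 and 404 in summer. ATP5ME and ATP5F1D, of the membrane part and the F1 head, differed by -0.19 each, and ATP5PF, coupling factor 6 of the peripheral stalk, by 0.23. The median was 0.15 without torpor 2, -0.057 without torpor 1 and -0.0074 without summer active 1, and rescaling to 1000000 moved it to 0.42.

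Arousal against torpor compares bats in arousal, 2 h after capture, with torpid bats. Of the 60 genes, 56 had a negative difference, with a median of -0.47 where all genes had 0.11. In 43 genes (71.7%) both arousal libraries were below both torpor libraries, against 22.2% of all genes tested, and in 1 gene, ATP5F1B, both were above, against 31.9%. With limma no member passed, nor did any of the 13542 genes (0% in either direction). At an unadjusted p under 0.05 there were 24 members lower and 0 higher, where 6.88% and 12.8% of all genes stood. The smallest adjusted p of a member was 0.143, for ATP5MK with a difference of -0.77 (SE 0.17).

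By complex, the median for arousal against torpor was -0.47 in complex I, -0.16 in complex II and -0.49 in complex V. All 30 accessory genes of complex I and 6 of its 7 core genes were negative. In complex V, 16 of 18 genes had both arousal libraries below both torpor libraries, the exceptions being ATP5F1B and the peripheral stalk gene ATP5PD (singled out after its values were seen), whose torpor 2 level of 189 lay inside the arousal range of 139 to 212. In complex II it was 0 of 4. The 4 positive members were NDUFS1 at 0.15, NDUFA4L2 at 0.022, SDHA at 0.041 and ATP5F1B at 0.17, all within 1 SE of 0.

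The group value leaned on arousal 1. Without that library the median was -0.29, and without arousal 2 it was -0.63. The number of genes with the remaining arousal library below both torpor libraries was 43 without arousal 1 and 56 without arousal 2, against 32.7% and 32.6% of all genes. Rescaling to 1000000 left a median of -0.098 and a count of 14, against 6.78% of all genes, and quantile normalization a median of -0.27 and a count of 35, against 28.4%. Relative to the median of all genes the value was -0.58, with -0.54 after rescaling to 1000000 and -0.24 after quantile normalization.

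Winter active against torpor compares bats of the same month, the former 26 h after capture. The median of the 60 genes was -0.22 against 0.079 for all genes, and 38 genes (63.3%) had both winter libraries below both torpor libraries against 21.3% of all genes. The reverse held for 2 members, NDUFC1 and NDUFB3 of the membrane arm of complex I, with differences of 0.17 and 0.18, against 29.6% of all genes. With limma no member and no gene passed (0% in either direction), and 7 members lower and 0 higher had an unadjusted p under 0.05, where 4.11% and 9.09% of all genes stood. The medians were -0.22 in complex I, -0.28 in complex II and -0.20 in complex V.

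ATP5MK had the most negative of these differences, -1.12 (SE 0.17, limma adjusted p = 0.271). NDUFB4, a membrane-arm subunit, followed with -0.68 (SE 0.23), at 26.5 and 28.9 in winter activity against 48.5 and 41.6 in torpor. SDHB differed by -0.60 and SDHA by -0.32, each without overlap. The ring gene ATP5MC3 differed by -0.46 (SE 0.16), at 138 and 142 against 199 and 188. Rescaling to 1000000 gave a median of -0.041, and quantile normalization -0.071. The count of 38 became 19 and 22 under these scalings, against 11.7% and 24.7% of all genes.

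Winter active against summer active sets the 2 active states side by side. The difference of ATP5MK, at 51.8 and 58.4 against 124 and 116, was -1.11 (SE 0.17), a fall to 0.459 of the summer level, and it was the only member that passed (limma adjusted p = 0.0351). By this test 0 members rose and 1 fell, where 0.14% of all genes rose and 0.894% fell. At an unadjusted p under 0.05 there were 1 member higher and 5 lower, beside 7.88% and 6.96% of all genes. The call did not outlast any fit without 1 of the 8 libraries (limma adjusted p = 0.0566 to 0.225) and was lost after rescaling to 1000000 (difference -0.55, limma adjusted p = 0.0862).

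As a group the members had a median of -0.20 for winter activity against summer, with 33 genes (55%) below without overlap against 21.9% of all genes, and 3 above against 27.2%. The median was -0.24 in complex I, -0.14 in complex II and -0.20 in complex V, where all genes had 0.046. Relative to all genes it was -0.25. Rescaling to 1000000 reversed the sign to 0.37 and left 1 gene below and 49 above, against 5.17% and 66.3% of all genes. The value relative to all genes stayed negative at -0.19. Besides ATP5MK, the lower members with the smallest p were NDUFA2 (-0.42), NDUFA13 (-0.62) and ATP5MC3 (-0.47), all with limma adjusted p of 0.264 or more. SDHD and SDHB differed by -0.18 and -0.17.

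Arousal against summer active gave the most calls among members. NDUFA13 fell by 1.23 (SE 0.24), NDUFA2 fell by 0.85 (SE 0.16) and ATP5MK fell by 0.76 (SE 0.17), with limma adjusted p of 0.0391, 0.0375 and 0.0476. Those 3 of 60 were lower and none was higher, where 3.14% of all genes fell and 2.39% rose. At an unadjusted p under 0.05 there were 19 members lower and 2 higher, beside 13.2% and 15.7% of all genes. The mean level in arousal was 0.428 of the summer mean for NDUFA13, 0.555 for NDUFA2 and 0.586 for ATP5MK. NDUFA2 and ATP5MK lost the call in every fit without 1 of the 8 libraries (limma adjusted p = 0.0612 to 0.144 and 0.0781 to 0.174). NDUFA13 kept it only without torpor 1 or torpor 2 (0.0482 and 0.0488) and otherwise had 0.0601 to 0.153. After rescaling to 1000000 the differences were -0.46 for NDUFA13, -0.076 for NDUFA2 and 0.0037 for ATP5MK, and none passed.

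The 60 genes had a median of -0.40 for arousal against summer, with -0.40 in complex I, -0.045 in complex II and -0.41 in complex V, where all genes had 0.083. In 40 genes (66.7%) both arousal libraries were below both summer libraries, against 25.3% of all genes, and 3 were above, against 32%. Those 3 were NDUFS1, NDUFA4L2 and SDHA. Rescaling to 1000000 left 2 below and 35 above, against 5.78% and 69% of all genes. The median was -0.24 without arousal 1 and -0.58 without arousal 2. That rescaling reversed the median to 0.37, when 11 members passed as higher and 0 as lower, among them SDHA (1.06), NDUFS1 (1.22), NDUFA4L2 (1.71), ATP5F1B (0.79) and ATP5F1A (0.52), while 5833 of all genes were then called higher and 266 lower. Relative to all genes, the median was -0.48 on the deposited scale and -0.39 after rescaling.

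Winter active against arousal compares 26 h with 2 h after capture. The median difference was 0.21 against -0.037 for all genes, and 44 of 60 genes were positive. In 23 genes both winter libraries were above both arousal libraries, against 18.1% of all genes, and in 5 both were below, against 21.3%. With limma no member and no gene passed (0% in either direction), and 5 members higher and 0 lower had an unadjusted p under 0.05, beside 3.08% and 2.37% of all genes. ATP5IF1 differed by 0.38, NDUFA13 by 0.61 and ATP5F1E by 0.50, while ATP5MK differed by -0.35 and SDHA by -0.36. The median was 0.25 in complex I, -0.13 in complex II and 0.20 in complex V. Without arousal 1 the median over all members was 0.050, and after rescaling to 1000000 it was 0.011, with 10 genes above and 14 below, against 9.33% and 37% of all genes.

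**Figure D4:**
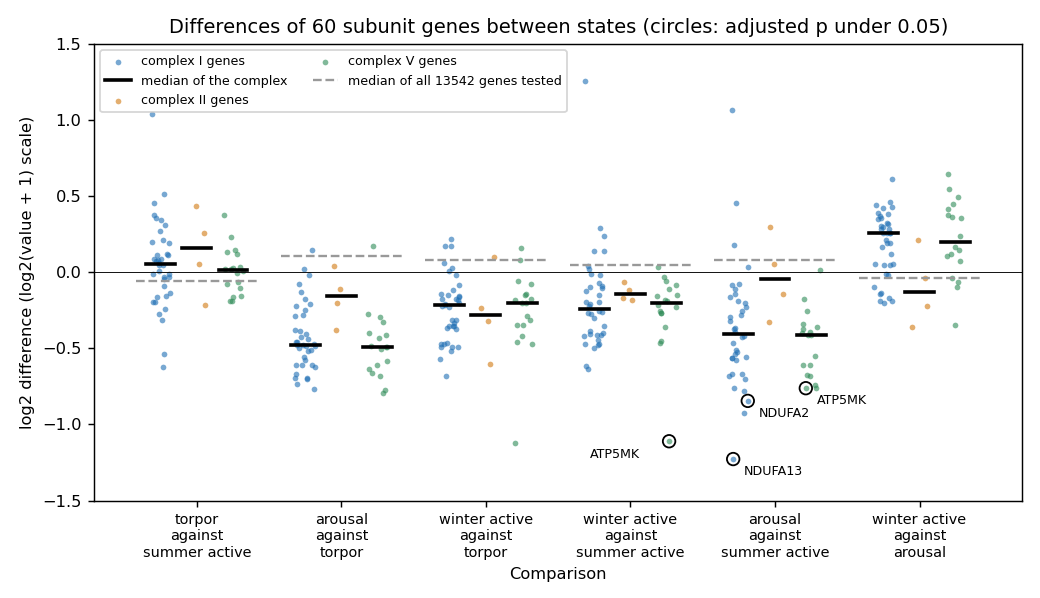
Log2 differences of the 60 genes (dots, coloured by complex) in the 6 comparisons, with black bars at the median of each complex, dashed lines at the median of all 13542 genes and circles around the members with an adjusted p under 0.05. The bars of complexes I, II and V are below the dashed line in arousal and winter activity against torpor and against summer. The circled genes are ATP5MK, NDUFA13 and NDUFA2. Comparisons that share a state share its libraries.

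In 9 further lists (assembly factors of each complex, citric acid cycle enzymes, electron carriers and entry enzymes, regulators, and nucleotide carriers) 85 genes were tested. For arousal against torpor the median was -0.080 in 17 assembly factors of complex I, 0.084 in 13 citric acid cycle enzymes, -0.016 in 17 electron carriers and entry enzymes, 0.18 in 13 regulators of mitochondrial biogenesis and -0.29 in 9 nucleotide carriers and uncoupling proteins. It was 0.061 in 4 assembly factors of complex II, 0.49 in 2 of complex III, -0.23 in 5 of complex IV and -0.19 in 5 of complex V. The subunits, at -0.47, had the most negative median of these groups. No test was made of the difference between the lists.

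With limma, 2 of the 85 genes passed in any comparison, both as falls in arousal against summer, where 3.14% of all genes fell. NDUFAF3, an assembly factor of complex I, stood at 69.0 and 85.1 in summer, 46.5 and 42.1 in torpor, 37.2 and 35.4 in arousal and 42.5 and 30.8 in winter activity. FMC1, an assembly factor of complex V, stood at 114 and 112, 85.6 and 56.9, 40.5 and 55.4, and 87.4 and 65.3. In both genes summer was above all other libraries, and arousal fell by 1.06 (SE 0.22, limma adjusted p = 0.0438) and by 1.24 (SE 0.27, limma adjusted p = 0.0470). Neither passed in any fit without 1 of the 8 libraries (limma adjusted p = 0.0555 to 0.151 and 0.0605 to 0.180), nor after rescaling to 1000000 (differences -0.30 and -0.47). With no filter both lost the call (limma adjusted p = 0.0748 and 0.0923), as did FMC1 under quantile normalization (0.0513) and with the replicate block (0.0511).

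Among the regulators, TFAM packs and transcribes mitochondrial DNA. It stood at 10.1 and 23.1 in summer, 14.0 and 11.0 in torpor, 29.5 and 40.2 in arousal and 19.4 and 33.3 in winter activity. GABPA, a subunit of nuclear respiratory factor 2 that binds promoters of subunit genes, stood at 6.38 and 11.2, 8.59 and 9.51, 18.0 and 18.3, and 13.0 and 19.5. NFE2L2, the master regulator of the antioxidant response, stood at 54.2 and 44.1, 47.2 and 25.5, 111 and 83.4, and 81.0 and 107. For these 3 genes both arousal libraries were above all summer and torpor libraries. Of all genes, 31.9% had arousal above torpor and 32% had arousal above summer. The share of all genes with both was not counted. Of all 13 regulators, 11 had a positive difference for arousal against torpor and 2 a negative one. The lowest was TFB1M, a mitochondrial rRNA methyltransferase, at -0.55. NRF1, nuclear respiratory factor 1, stood at 20.7 and 18.0 in summer, 20.3 and 11.3 in torpor, 14.3 and 13.8 in arousal and 14.0 and 12.5 in winter activity. NRF1 in arousal was below both summer libraries and inside the range of torpor. The differences for arousal against torpor were 1.40 for TFAM and 1.44 for NFE2L2, and neither passed (limma adjusted p = 0.174 and 0.143).

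SLC25A4, the adenine nucleotide carrier of muscle and heart, stood at 16.2 and 63.5 in summer, 97.7 and 48.3 in torpor, 6.69 and 34.8 in arousal and 34.3 and 45.0 in winter activity. Its replicates were far apart, and the difference of -2.07 for arousal against torpor did not pass (limma adjusted p = 0.235).

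Other large families of housekeeping complexes were set beside the subunits. The 77 mitochondrial ribosomal protein genes tested, which serve the making of the mitochondrially encoded subunits, had a median of -0.40 for arousal against torpor, and 51 (66.2%) lay below without overlap, against 22.2% of all genes. The 37 proteasome subunit genes had a median of -0.30, with 21 (56.8%) below. All genes had a median of 0.11 there. For winter active against torpor the medians were -0.25 and -0.28, beside -0.22 in the respiratory subunits and 0.079 in all genes. For winter active against arousal they were 0.080 and -0.037, beside 0.21 and -0.037. Values below torpor in arousal and in winter activity were thus also found in these 2 families, and no difference between families was tested.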

How the data were processed

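Total RNA of whole spleen was made into Illumina libraries, per the labels' protocols. Quantification used kallisto 0.46.2 and sleuth 0.30.0, per the submitters' processing notes. The sources used here do not give the transcriptome or how libraries were scaled to each other. The authors deposited a rescaled TPM for each gene and library, used here as a signal because column sums run from 745098 to 1331820. The design had assumed plain TPM; its log-scale test was kept. The values hold no counts, so depth is unknown and no counting interval is given. All 60 subunit names were found in RefSeq's annotation of mRhiFer1_v1.p, used for names alone. The authors' build is not given, so coordinates and sequences are left out.

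Genes with an 8-library mean of at least 1 (13542 of 19652) were fitted as log2(value + 1) in limma 3.58.1 (R 4.3.3; lmFit, contrasts, eBayes with trend). All 8 libraries entered 1 fit with 4 state means, with 4 residual and 3.29 prior degrees of freedom. The Benjamini-Hochberg threshold was 0.05. The script was tested on simulated data. Torpor against summer, arousal and winter activity against torpor, and winter activity against summer were the main comparisons; the other 2 were secondary.

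The members and lists were chosen with earlier results of these data known. Named genes were the members past the threshold, the 2 per complex and direction with the smallest p in each main comparison, fixed catalytic subunits, c subunit genes, the inhibitor and NDUFA4L2, and the extremes of mean and SD, except 1 gene whose own values are not reported here. From each other list the 2 with the smallest p could be named. NRF1, and NDUFAF3 and FMC1 in arousal against summer, were described after their values were seen. Alternatives changed the pseudocount (0.1), the filter (none, or a mean of at least 5), the scale (columns set to 1000000, median of ratios, quantiles), the variance model (robust eBayes) or the libraries (replicate block, the 2 states alone, each library left out). Columns set to 1000000 without the 10 highest genes, and rescaled or left-out overlap counts, were added after seeing the data.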

Additional observations from a re-analysis of the deposited data

How the results depend on the processing

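In the 2 comparisons with a member called, 12 of 36 alternatives stayed within 1.5 times the count reported and 19 called 0 members, and in the other 4 all 72 alternatives stayed at 0. Of 828 values of single named genes 750 kept their call, and their direction where the gene had passed or differed by more than its SE. Changes of sign in smaller differences were not counted. The cause of the changes below was not tested beyond what each alternative's construction shows. Median differences with columns set to 1000000 were 0.42 for torpor against summer active, -0.098 for arousal against torpor, -0.041 for winter active against torpor, 0.37 for winter active against summer active, 0.37 for arousal against summer active and 0.011 for winter active against arousal. The signs of both comparisons of arousal or winter activity with summer reversed. Members called then numbered 2 in winter active against summer active, both higher, and 11 in arousal against summer active, all higher. Sign changes of named genes in that setting were counted only where the gene had passed or differed by more than its SE. Such changes were ATP5F1D in torpor against summer active (0.20), and NDUFA2 (0.15) and ATP5MC3 (0.10) in winter active against summer active. Another was ATP5MK in arousal against summer active (0.0037). Leaving the 10 highest genes out of the totals gave -0.24 for arousal against torpor, -0.051 for winter active against summer active and -0.12 for arousal against summer active, with 0 and 1 members called in the last 2. Median-of-ratios rescaling gave -0.61 for arousal against torpor. Quantile normalization gave -0.27 for arousal against torpor, -0.071 for winter active against torpor, -0.063 for winter active against summer active and -0.22 for arousal against summer active, where 0 members were called. A fit of the 2 states alone called 0 members in both comparisons with summer. Leaving out each library gave medians of -0.63 to -0.29 for arousal against torpor, -0.58 to -0.24 for arousal against summer active and 0.050 to 0.32 for winter active against arousal, and called 0 members in winter active against summer active and 0 to 1 in arousal against summer active. There the remaining replicate is taken to have the spread of the other states. With the replicate number as a block 0 members were called in winter active against summer active (ATP5MK, limma adjusted p = 0.0565) and 2 in arousal against summer active (ATP5MK lost, 0.0531), and FMC1 lost its call (0.0511). Over all genes tested, the replicate differences of summer, torpor and winter activity correlated with each other at 0.23 to 0.32. Those of arousal correlated with the other states at -0.19 to 0.12. With 2 libraries a state these values cannot decide whether the replicate numbers pair the libraries. Medians relative to all genes kept their sign in every alternative except in torpor against summer active, where they ran from -0.018 to 0.22. With 2 libraries a state and unknown depth, median differences of the members under about the spread of their library medians within states (SD 0.13) could not be resolved. For single members the SE of a difference had a median of 0.22, and many differences larger than that did not pass.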
